A study of Mus musculus with 6 samples.

Results

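The ATF4 amino acid stress genes are the transcription factor gene Atf4 and 9 genes of the response it drives: Ddit3, Asns, Chac1, Trib3, Psat1, Phgdh, Sesn2, Slc7a11 and Atf5. They were chosen by name from a list of 10 symbols, by a rule that uses no measured value, out of 55487 genes in the table. The choice was made with earlier results of these data known. The 10 symbols matched 11 gene identifiers, because Ddit3 has a second, short entry (ENSMUSG00000116429.1) that is listed at 0 in all 6 libraries and was not used. The other 10 identifiers reached a mean of 3 over the libraries and so were among the 18766 genes tested.

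The RNA came from cKit+ cells of whole mouse bone marrow; cKit is the stem cell factor receptor found on blood stem and progenitor cells. Lentivirus gave the cells either wild type MLLT3 (WT, 3 libraries) or the double mutant of MLLT3 that carries K63E together with K67E (DM, 3 libraries), and both groups then received 4-hydroxytamoxifen at 200 nM to delete the endogenous Mllt3 gene. Sorted cells of both groups grew in methylcellulose over 8 days; the medium held 10 ng/mL of Flt3L plus other cytokines, each at 20 ng/mL, among them EPO, SCF, GM-CSF, IL-3, IL-6 and IL-11. Both groups carry a lentivirus made to overexpress MLLT3, per the labels, and no library without it was analysed here; the age and strain of the mice and the Cre driver are not given in the sources used here, and the labels do not say whether the replicates are separate animals or cultures, so p-values measure the spread between these libraries only.

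Expression is given as rlog, the regularized log2 of DESeq2, which shrinks genes with low counts toward their mean and so understates changes of low genes. Each change is the DM mean minus the WT mean on that scale, and a gene is said to rise or fall where limma gave an adjusted p under 0.05 over all 18766 genes. By that rule 13.9% of all tested genes differed, 9.2% higher and 4.71% lower in DM. Higher genes made up 66.1% of the calls, but 51.3% after quantile normalization. Mllt3 itself had a mean of 12.64 in WT and 12.16 in DM (change -0.48, adjusted p 0.0448); whether its row counts vector reads is not given in the sources used here. Kit was at 14.39 in WT and 14.6 in DM (adjusted p 0.368). Markers of several lineages were measured in both groups, and of these the neutrophil granule list had 13 of 15 genes lower in DM and the monocyte and macrophage list 11 of 15 higher and 2 lower. In bulk RNA, fewer cells of a type and less RNA per cell cannot be told apart.

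The integrated stress response joins several kinases that sense amino acid shortage, misfolded protein, heme shortage or viral RNA to a single step, the phosphorylation of the translation factor eIF2. Most protein synthesis then slows, while the Atf4 mRNA is translated more, so that ATF4 protein can rise without a rise of its mRNA. ATF4 pairs with C/EBP family partners at composite promoter elements and raises genes that import or make amino acids, and, under longer stress, genes of growth arrest and cell death.

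The promoters of the members were searched for the core of that composite element, spelled TGATGNAA, on both strands of the 250 bases upstream of each RefSeq start (GRCm38.p6). All 10 members were found in the RefSeq promoter table, Psat1 and Atf5 with 2 starts each. The core was present for 3 of the 10 members, Asns, Chac1 and Slc7a11, against 3.91% of the 27025 genes in the table. Trib3 and Psat1 carry TGGTGCAA, which was looked for after these promoters were seen and occurs in 0.555% of those genes. Asns holds the core at positions -23 to -16 from the start, Chac1 at -193 to -186 on the opposite strand, and Slc7a11 at both -66 to -59 and, on the opposite strand, -47 to -40. The match of Trib3 lies at -33 to -26 and that of Psat1 at -136 to -129. These 5 windows are shown because they hold a match to either spelling, and 4 of their genes fell and 1 rose in DM. Matches are in capitals, and each window is read 5′ to 3′ along the gene.
Asns, chr6:7693210-7693459, minus strand: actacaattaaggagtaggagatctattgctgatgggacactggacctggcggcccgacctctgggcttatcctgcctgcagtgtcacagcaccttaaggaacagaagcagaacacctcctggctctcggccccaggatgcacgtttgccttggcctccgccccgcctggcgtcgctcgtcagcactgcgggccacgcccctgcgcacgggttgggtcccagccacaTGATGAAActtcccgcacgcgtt
Chac1, chr2:119350992-119351241, plus strand: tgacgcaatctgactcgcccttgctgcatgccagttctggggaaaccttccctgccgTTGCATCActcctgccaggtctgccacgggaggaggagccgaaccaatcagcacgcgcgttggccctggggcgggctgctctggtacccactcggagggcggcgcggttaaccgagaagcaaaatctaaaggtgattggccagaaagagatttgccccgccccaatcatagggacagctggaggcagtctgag
Slc7a11, chr3:50443614-50443863, minus strand: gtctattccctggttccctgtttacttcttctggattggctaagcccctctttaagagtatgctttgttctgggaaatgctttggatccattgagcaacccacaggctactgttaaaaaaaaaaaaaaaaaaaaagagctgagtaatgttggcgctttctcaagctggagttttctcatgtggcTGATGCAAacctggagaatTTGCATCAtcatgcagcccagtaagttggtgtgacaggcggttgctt
Trib3, chr2:152344061-152344310, minus strand: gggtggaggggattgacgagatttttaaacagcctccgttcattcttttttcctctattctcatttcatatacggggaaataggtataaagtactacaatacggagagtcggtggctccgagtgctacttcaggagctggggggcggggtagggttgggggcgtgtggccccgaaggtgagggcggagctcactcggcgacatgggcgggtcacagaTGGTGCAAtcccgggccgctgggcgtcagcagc
Psat1, chr19:15925060-15925309, minus strand: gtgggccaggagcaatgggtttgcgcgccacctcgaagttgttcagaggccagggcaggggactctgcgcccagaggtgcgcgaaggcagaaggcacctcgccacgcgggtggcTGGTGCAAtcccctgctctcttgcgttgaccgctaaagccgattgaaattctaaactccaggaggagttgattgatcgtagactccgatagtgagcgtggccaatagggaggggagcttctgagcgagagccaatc
No match to either spelling was found in the windows of Atf4, Ddit3, Phgdh, Sesn2 and Atf5. A match is a run of letters, not a measured binding site, and the presence of TGATGNAA did not go with 1 direction of change, since Asns and Chac1 fell and Slc7a11 rose in DM.

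In DM the 10 genes split. Asns, Chac1, Psat1, Phgdh and Trib3 fell, Slc7a11, Atf5 and Ddit3 rose, and Atf4 and Sesn2 were not called. The changes ran from -0.69 for Chac1 to 0.78 for Slc7a11, with a median of -0.21 over the 10 genes against 0.01 over all genes tested. With 3 called higher and 5 called lower, 80% of the members were called, against 13.9% of all genes tested. For 8 members every DM library lay on one side of every WT library, while this held for 35.8% of all genes. The members, pathway lists and marker lists were chosen with earlier results of these data known. Contrasts of their shares with all genes are therefore descriptions, not tests. With 1 library left out, from 1 to 3 members were called higher and from 3 to 5 lower. The fewest were higher (1) without WT replicate 1, DM replicate 2 or DM replicate 3, and the fewest lower (3) without WT replicate 1. Asns, Chac1, Psat1 and Slc7a11 kept their calls in all 12 alternatives.

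**Figure D1:**
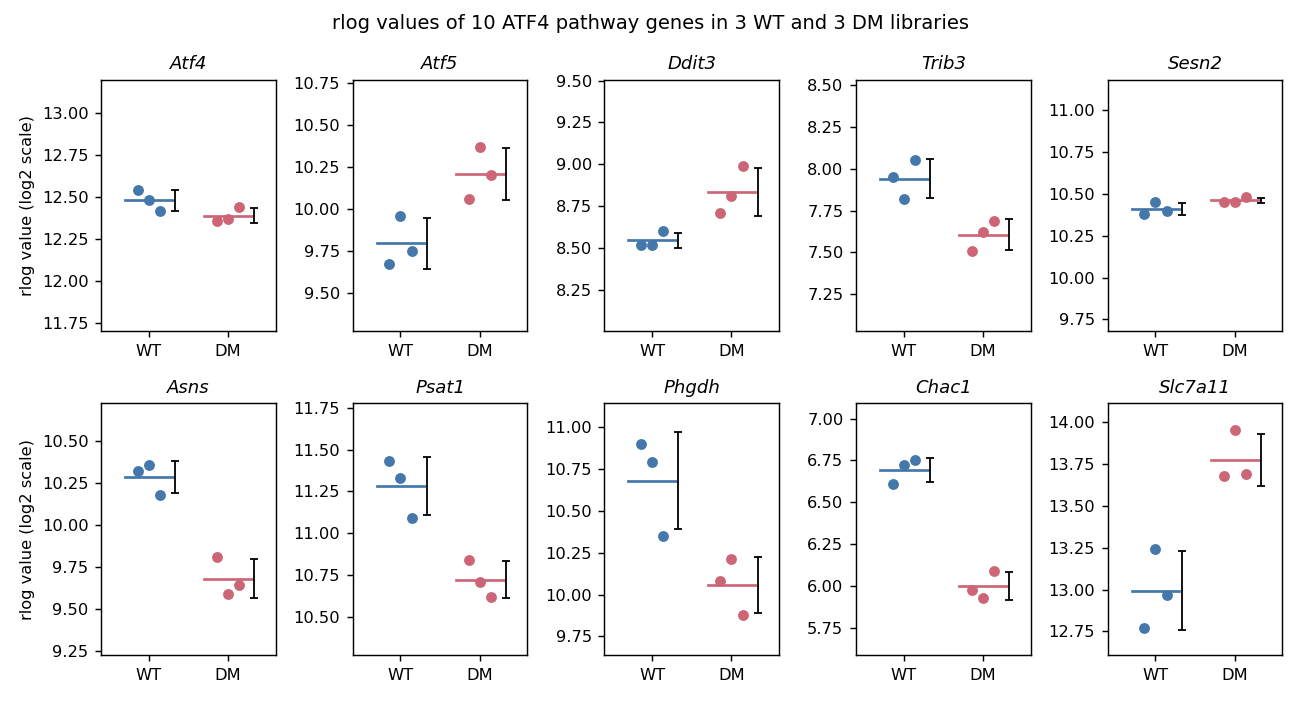
Each panel plots the rlog value (log2 scale) of a member in the 3 WT (blue) and 3 DM (red) libraries, with the group mean as a line and the SD as a black bar; every panel spans the same range of 1.5. Atf4 and Sesn2 lie close together in both groups, while the WT and DM points of the other 8 genes are apart.

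Atf4 (ENSMUSG00000042406.8; chromosome 15, 80255184 to 80257541, plus strand on GRCm38), the regulator of the set, was the most abundant member per kilobase of exon in both groups. Its rlog values, in the order of replicates 1 to 3 as for all genes here, were 12.54, 12.48 and 12.42 for WT and 12.36, 12.37 and 12.44 for DM. The highest DM library lay above the lowest WT library, so the groups overlapped. The means were 12.48 ± 0.0588 (SD, n = 3) and 12.39 ± 0.0452 (SD, n = 3), a change of -0.09 (SE 0.0688, limma adjusted p 0.432). After quantile normalization the change of Atf4 was -0.21 (limma adjusted p 0.0453), past the threshold, and this was its 1 call in 12 alternatives. These values are mRNA levels and do not measure the translation of Atf4.

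Ddit3 (ENSMUSG00000025408.15; chromosome 10, 127290774 to 127296288, plus strand), which encodes CHOP, a C/EBP family factor linked to cell death under long stress, measured 8.52, 8.52 and 8.6 under WT and 8.71, 8.81 and 8.99 under DM. All 3 DM libraries lay above all 3 WT libraries, but the gap between the groups was only 0.1. The change was 0.29 (SE 0.0825, limma adjusted p 0.046), and only 4 of 12 alternatives kept the call. It was lost after quantile normalization (0.23, adjusted p 0.11) and centring on the median (0.25, 0.0726), without the filter on the mean (0.29, 0.101), and in 5 of the 6 fits with 1 library left out, all except that without DM replicate 1 (changes from 0.21 to 0.35 over the 6 fits). Ddit3 shares 68 exonic bases with Mars, the methionyl-tRNA synthetase gene on the opposite strand, and whether counting used strand is not given in the sources used here. Mars, listed as Mars1, changed by -0.15 and was not called (limma adjusted p 0.222). The part of reads from the shared bases in either value was not tested.

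Atf5 (ENSMUSG00000038539.15; chromosome 7, 44812256 to 44816658, minus strand), a relative of ATF4 with a part in mitochondrial stress and survival, measured 9.67, 9.96 and 9.75 under WT and 10.06, 10.37 and 10.2 under DM. The second replicate was the highest of each group, and the groups did not overlap. Its change was 0.42 (SE 0.0987, limma adjusted p 0.0214), 1.34 times the WT level. The call was lost without WT replicate 1 (0.36, adjusted p 0.0881) and on leaving out the second (0.34, 0.0856) or the third (0.42, 0.0667) DM replicate. Atf5 shares 82 exonic bases with Nup62 and Il4i1 on the opposite strand, whose changes were 0.12 and -0.03 with limma adjusted p values of 0.389 and 0.855. Nup62 had a mean rlog value of 11.54 over the libraries, above the Atf5 means of 9.79 in WT and 10.21 in DM, and Il4i1 one of 6.44. Whether counting used strand is not given, and the part of reads from the shared bases in the value of Atf5 was not tested.

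Trib3 (ENSMUSG00000032715.9; chromosome 2, 152337422 to 152344032, minus strand) encodes a pseudokinase that is induced by ATF4 and CHOP and holds them back. It measured 7.95, 7.82 and 8.05 under WT and 7.51, 7.62 and 7.69 under DM, with no overlap. The change was -0.34 (SE 0.0826, limma adjusted p 0.0251). The call was lost without WT replicate 1 (-0.33, adjusted p 0.0831), WT replicate 3 (-0.28, 0.0695), DM replicate 1 (-0.29, 0.0842) or DM replicate 2 (-0.34, 0.0698). Trib1 and Trib2, its paralogs, changed by 0.12 and -0.1 and were not called (adjusted p 0.432 and 0.565).

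Sesn2 (ENSMUSG00000028893.8; chromosome 4, 132492032 to 132510501, minus strand), a leucine sensor that restrains the growth kinase mTORC1, varied least of the 10 genes. It stood at 10.38, 10.45 and 10.4 in WT and 10.45, 10.45 and 10.48 in DM. The groups met at 10.45, and the change was 0.05 (SE 0.0615, limma adjusted p 0.615), or -0.04 after quantile normalization (adjusted p 0.685). Its paralog Sesn3 rose by 0.3 (adjusted p 0.02; 0.29 and adjusted p 0.0815 without WT replicate 1, 0.25 and 0.0752 without DM replicate 1), and Sesn1 changed by 0.05 (adjusted p 0.647). The difference between the changes of Sesn2 and Sesn3 was not tested.

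The 3 members that make amino acids were lower in every DM library than in any WT library. Asns (ENSMUSG00000029752.12; chromosome 6, 7675169 to 7693254, minus strand), which makes asparagine from aspartate, measured 10.32, 10.36 and 10.18 under WT and 9.81, 9.59 and 9.64 under DM. The gap between the groups was 0.37. The means were 10.29 ± 0.0944 (SD, n = 3) and 9.68 ± 0.117 (SD, n = 3), a change of -0.61 (SE 0.0814, limma adjusted p 0.0027), or 0.656 times the WT level. Over the 12 alternatives the change of Asns ran from -0.67 to -0.56, and the highest adjusted p was 0.0156.

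Phgdh and Psat1 encode the first and second enzymes of serine synthesis from a glycolytic intermediate. Phgdh (ENSMUSG00000053398.11; chromosome 3, 98313170 to 98339990, minus strand) measured 10.9, 10.79 and 10.35 under WT and 10.08, 10.21 and 9.88 under DM. WT replicate 3 lay well below the other WT libraries, and the gap to the highest DM library was 0.14. The change of Phgdh was -0.62 (SE 0.137, limma adjusted p 0.0162), and the call was lost on leaving out WT replicate 1 (-0.51, adjusted p 0.0606) or DM replicate 3 (-0.53, 0.0668). Psat1 (ENSMUSG00000024640.9; chromosome 19, 15904678 to 15947337, minus strand) measured 11.43, 11.33 and 11.09 under WT and 10.84, 10.71 and 10.62 under DM, with a gap of 0.24. WT replicate 3 was again the lowest of its group and DM replicate 3 the lowest of all. Its change was -0.56 (SE 0.0981, limma adjusted p 0.00744), from -0.66 to -0.48 over the alternatives.

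Chac1 (ENSMUSG00000027313.3; chromosome 2, 119351229 to 119354381, plus strand), an enzyme that breaks down glutathione, had the smallest adjusted p of the 10 genes. It measured 6.61, 6.72 and 6.75 under WT and 5.98, 5.93 and 6.09 under DM, 0.52 apart at the nearest. The means were 6.69 ± 0.0748 (SD, n = 3) and 6 ± 0.0834 (SD, n = 3), a change of -0.69 (SE 0.0737, limma adjusted p 0.00079). Of the 10 genes it had the lowest mean rlog value in both groups, and also the lowest level per kilobase of exon. Because rlog shrinks genes with low counts, its change may be understated, though the counts are not known here. Its paralog Chac2, which breaks down glutathione more slowly, changed by 0.1 (adjusted p 0.478).

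Slc7a11 (ENSMUSG00000027737.10; chromosome 3, 49892526 to 50443614, minus strand), the cystine importer xCT that feeds glutathione synthesis, had the largest change of the 10 genes and the opposite sign to Chac1. It measured 12.77, 13.24 and 12.97 under WT and 13.68, 13.95 and 13.69 under DM, with a gap of 0.44. Replicate 2 was the highest library of each group, as it was for Atf5. The means were 12.99 ± 0.239 (SD, n = 3) and 13.77 ± 0.154 (SD, n = 3), a change of 0.78 (SE 0.124, limma adjusted p 0.00553), or 1.72 times the WT level, from 0.61 to 0.91 over the alternatives. The partner chain of xCT at the membrane, Slc3a2, rose by 0.3 (adjusted p 0.0293), but by 0.11 after quantile normalization (adjusted p 0.248), and it lost its call in 4 of the 6 fits with 1 library left out: those without WT replicate 1 (0.29), WT replicate 3 (0.28), DM replicate 1 (0.26) or DM replicate 2 (0.29).

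**Figure D2:**
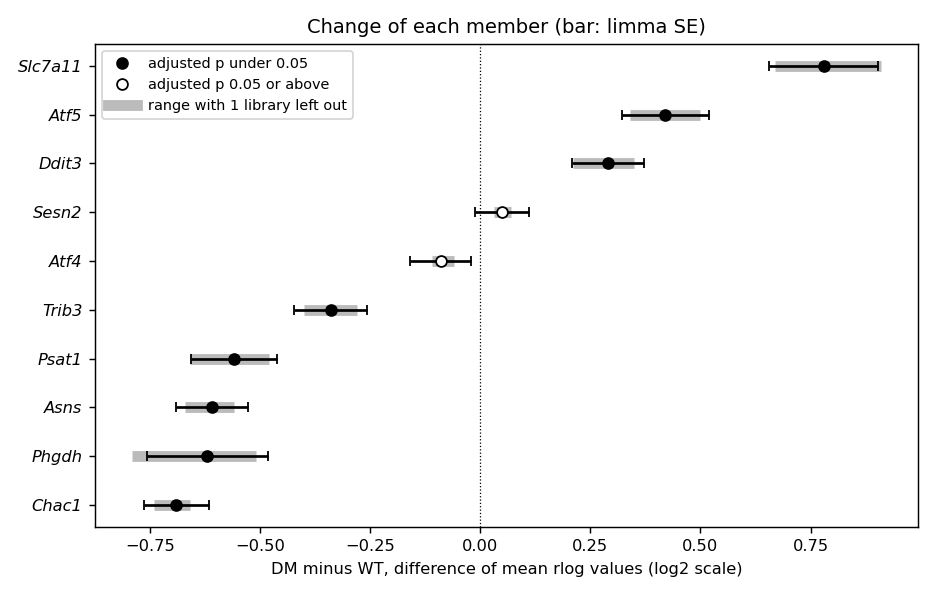
Points show the change of each member (DM minus WT, difference of mean rlog values on the log2 scale) with the limma SE as a bar, and grey bands show the range of the change with 1 library left out. The 5 genes from Trib3 down to Chac1 lie below 0 and Ddit3, Atf5 and Slc7a11 above it in every such fit.

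Levels between members were compared after subtracting log2 of the exon length in kilobases from the mean rlog value, with all exons of the gene merged. On this scale Atf4 stood at 11.24 in WT, well above Phgdh at 9.37, Psat1 and Slc7a11 both at 9.19, Asns at 8.83, Atf5 at 8.8 and Sesn2 at 8.61. Ddit3 at 7.77, Trib3 at 6.85 and Chac1 at 5.98 were the lowest. Among neighbours in this order, Phgdh, Psat1 and Slc7a11 differed by less than the SD of Phgdh in WT (0.292), and Asns and Atf5 by less than that of Atf5 (0.147). In DM the level of Slc7a11 was 9.97 and that of Atf5 9.22, next below Atf4 at 11.16, and both now stood above Phgdh at 8.74. Sesn2 at 8.66, Psat1 at 8.63 and Asns at 8.23 followed, of which Phgdh, Sesn2 and Psat1 differed by less than the SD of Phgdh in DM (0.164). Ddit3 (8.06), Trib3 (6.52) and Chac1 (5.29) stayed the lowest.

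The 3 genes outside the set whose values followed those of Slc7a11 most closely were found by the root mean square difference of mean-centred rlog values over the 6 libraries, among 18756 genes. They were H2-Ab1 (0.0409), a chain of MHC class II, Tnfrsf1b (0.0448), a receptor for tumour necrosis factor, and Shtn1 (0.05). H2-Ab1 changed by 0.79, Tnfrsf1b by 0.72 and Shtn1 by 0.79. With 6 libraries in 2 groups this measure rests mostly on the difference between groups.

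Upstream of ATF4, the genes that set the state of eIF2 gave no call. None of the 17 tested genes of eIF2 kinases and eIF2 control passed limma's threshold, against 13.9% of all genes tested. Of the 17, 0 also had an unadjusted p under 0.05, and their median change was 0.05. The kinases were Eif2ak1 (HRI, for heme shortage and mitochondrial stress) at 0.05, Eif2ak2 (PKR, for double-stranded RNA) at 0.01, Eif2ak3 (PERK, for misfolded protein) at 0.05 and Eif2ak4 (GCN2, for amino acid shortage) at 0.14, with adjusted p values of 0.661, 0.958, 0.669 and 0.227. Signs of Eif2ak1, Eif2ak2 and Eif2ak3 turned after quantile normalization. Ppp1r15a, which recruits the phosphatase that ends the response, changed by 0.14 (adjusted p 0.389). Kinase activity and eIF2 phosphorylation are not measured by these data.

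The enzymes of serine, one-carbon and proline synthesis moved with Phgdh and Psat1. Of the 12 tested genes outside the members, 9 fell and 0 rose, 75% of the list against 4.71% of all genes called lower, and all 12 had a lower mean in DM (median -0.31). Psph, which completes serine synthesis, fell by 0.33 (limma adjusted p 0.0245), Shmt2, which turns serine into glycine in mitochondria, by 0.53 (0.0108), and Shmt1, its cytosolic form, by 0.39 (0.0163). The folate enzymes Mthfd1l and Mthfd2 fell by 0.46 (0.0126) and 0.32 (0.0265), and Pck2, which makes phosphoenolpyruvate in mitochondria, by 0.34 (0.0445). Shmt2 kept its call in all 12 alternatives. Without WT replicate 1 or DM replicate 3 the calls of Psph, Shmt1, Mthfd1l, Mthfd2 and Pck2 were lost, with changes from -0.42 to -0.25, and without DM replicate 2 those of all these except Shmt1. Shmt1 also lost its call without DM replicate 1 (-0.35, limma adjusted p 0.0523), and Pck2 with no filter on the mean (-0.34, 0.092). Mthfd2 lost its call in 4 fits with 1 library left out. The median of the list ran from -0.36 to -0.28 with 1 library left out, while the number lower went to 1 on leaving out WT replicate 1, to 2 for DM replicate 3 and to 3 for DM replicate 2, and to 6 with no filter on the mean.

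Cell cycle genes fell in the same libraries. The proliferation list had 13 of 15 genes called lower (86.7%, against 4.71% of all genes) and 0 higher, with a median change of -0.48. Its summed level lay from 16.19 to 16.35 (log2 of summed linear values) in WT and from 15.78 to 15.96 in DM. Its mean rlog value was 11.61, 11.61 and 11.43 under WT and 11.18, 11.08 and 11.02 under DM. WT replicate 3 was the lowest WT library on this list as it was for Asns, Psat1 and Phgdh. For Chac1 and Trib3, which also fell, it was the highest WT library (6.75 and 8.05). In DM Psat1 kept the order of the list means, while Asns and Phgdh did not. The neutrophil granule list had 13 of 15 genes lower (86.7%) and 0 higher (median -1.62), with a summed level of 18.62 to 19.06 in WT and 17.3 to 18.12 in DM. Both sums weigh the most abundant genes most, Mki67 (mean rlog 15.05 in WT, 14.65 in DM) and S100a9 (17.09 and 15.82). The lowest proliferation means were Aurkb in WT (10.12) and Cdc20 in DM (9.64). The lowest neutrophil means were those of Fcnb (10.05 in WT, 7.74 in DM). The part of these shifts in the fall of the amino acid synthesis genes was not tested.

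Slc7a11, Atf5 and Ddit3 rose in libraries where most monocyte and macrophage markers were higher. The monocyte and macrophage list had 11 of 15 genes called higher and 2 lower (median 0.63), 86.7% called against 13.9% of all genes tested. The 2 lower genes were Ly6c2 (-1.13, limma adjusted p 0.00361) and Ccr2 (-0.78, 0.00975), picked once their values were known. Both were called in all 12 alternatives. The summed level of the list was 18.33 to 19 in WT and 19.29 to 19.66 in DM. This sum rests mostly on Lyz2 (mean rlog 17.9 in WT, 18.75 in DM) and Gpnmb (16.22 and 17.17). The lowest marker mean was that of Cx3cr1 (7.13 in WT, 7.08 in DM). The mean rlog value of the list was 11.96, 12.27 and 11.92 under WT and 12.33, 12.55 and 12.52 under DM. Replicate 2 was thus the highest library of each group, as for Slc7a11 and Atf5. Ddit3 was instead highest in replicate 3 of each group (8.6 in WT and 8.99 in DM), where the list was lowest in WT. Of the other lists, mast cell and basophil markers had 2 of 10 higher and 1 lower, and megakaryocyte markers 2 of 6 higher. The lymphoid list had 1 of 5 tested genes higher and 1 lower. The shares called in these 3 lists were 30%, 33.3% and 40%, against 13.9% of all genes tested. Erythroid markers gave 0 calls of 7 with limma, and also Kit, Ptprc, Cd34 and Ly6a of the gate were not called, while Flt3 was lower (-0.3, adjusted p 0.0494) but kept that call in only 2 of 11 alternatives. The part of the shift of monocyte and macrophage markers in the rise of the 3 genes was not tested.

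**Figure D3:**
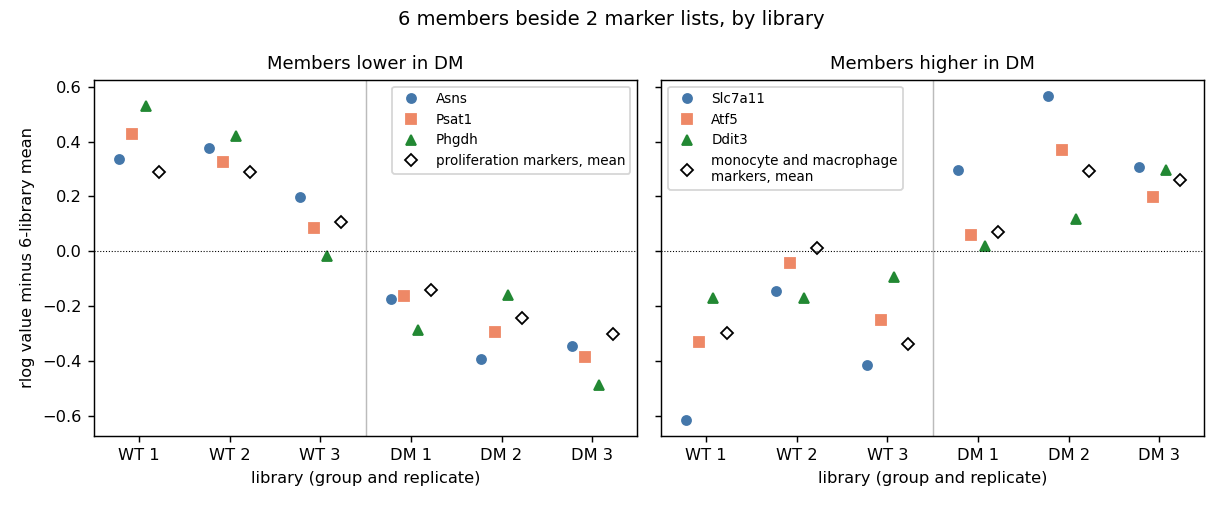
Points give, for each library, the rlog value minus its mean over the 6 libraries, for 3 members that fell beside the mean of 15 proliferation markers (left) and 3 members that rose beside the mean of 15 monocyte and macrophage markers (right). The left markers lie higher in WT, the right markers higher in DM, and the open diamonds of the marker lists keep to the same side as the members in all libraries except WT 2 (right) and, for Phgdh, WT 3 (left).

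Slc7a11 is also a textbook target of NRF2, the factor of the oxidative stress response. Of 13 tested NRF2 pathway genes, Slc7a11 among them, 8 were called higher and 1 lower, against 9.2% and 4.71% of all genes, with a median of 0.39 (0.26 after quantile normalization). Prdx1, a peroxidase, rose by 0.85 (limma adjusted p 0.00553), Hmox1, which degrades heme, by 0.69 (0.0141), Srxn1, which repairs peroxidases, by 0.58 (0.00706) and Nqo1, a quinone reductase, by 0.51 (0.016). The 1 lower gene was Gsr, glutathione reductase (-0.28, adjusted p 0.0409), which was picked once its value was known. Gsr kept its call in 5 of 12 alternatives, and with any 1 library left out no gene of the list was called lower. Without WT replicate 1 or DM replicate 2, 4 genes were called higher, and Hmox1 lost its call in both fits (0.57 and 0.58). Gclm, a subunit of the enzyme that starts glutathione synthesis, rose by 0.39 (adjusted p 0.0467) but kept the call in only 4 of 12 alternatives. In the list of cysteine and glutathione supply, 2 of 8 genes rose (25%, against 9.2% of all genes called higher), Gclm and Slc3a2, and 0 fell. After quantile normalization none was called, and none was called higher on leaving out WT replicate 1 or 3 or DM replicate 1 or 2. Leaving out WT replicate 2 gave 2 higher and 2 lower, and leaving out WT replicate 3 gave 1 lower. The part of NRF2, or of the shift of monocyte and macrophage markers, in the rise of Slc7a11 and of the NRF2 list was not tested.

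Genes that ATF4 raises in other cell types did not move as a block. Of 13 tested tRNA synthetase genes under ATF4 control, counting the tRNA export receptor Xpot, limma called 0 (1 had an unadjusted p under 0.05). Their median was -0.08, and the share called over all genes tested was 13.9%. After quantile normalization 5 of the 13 were called lower and the median was -0.19. Of the 8 other cytoplasmic synthetases 2 fell (25%, against 4.71% of all genes called lower), Dars (-0.35, limma adjusted p 0.0139) and Vars (-0.27, 0.0436). Dars lost its call without WT replicate 1 or DM replicate 3, and Vars without those libraries, WT replicate 2 or DM replicate 2. Of 12 amino acid transporters, 2 rose and 2 fell, 33.3% called against 13.9% of all genes tested. Slc36a4, a lysosomal transporter, rose by 0.49 (limma adjusted p 0.00832) and Slc3a2 as above. Slc43a1, for large neutral amino acids, fell by 0.46 (0.00706) and Slc7a1, for cationic amino acids, by 0.32 (0.0174). Slc7a1 lost its call without WT replicate 1, DM replicate 2 or DM replicate 3.

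Among 17 tested effectors of ATF4 and CHOP, 3 rose and 3 fell, with a median of -0.1. The share called was 35.3%, against 13.9% of all genes tested. Vegfa, the vascular growth factor, fell by 1.22 (limma adjusted p 0.000331) and Stc2, a secreted glycoprotein, by 1.06 (0.000102), both more than any member. Gdf15, a stress cytokine, rose by 0.72 (0.00381) and Atf3, a factor of the same family, by 0.67 (0.00484). These 4 genes kept their calls in all 12 alternatives. Cebpb, a partner of ATF4, rose by 0.46 (adjusted p 0.0309) but kept the call in 7 of 12 alternatives (quantile normalization and leaving out WT replicate 1 or 3 or DM replicate 2 or 3 each ended it), and Cebpg, another partner, changed by 0.01 (adjusted p 0.956). The remaining call was Jdp2 (-0.31, adjusted p 0.0292; called in 7 of 12 alternatives), likewise picked once its value was known. Fgf21 had a mean under 3 and was not tested.

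The other arms of the response to misfolded protein gave 0 calls of 18 genes with limma, against 13.9% of all genes tested. Of the 18, 3 had an unadjusted p under 0.05, and the median was 0.05. Hspa5, the chaperone BiP, changed by 0.1 (adjusted p 0.513; -0.05 after quantile normalization). After quantile normalization 4 of the 18 were called lower, with a median of -0.11. With the replicate number as a block 3 were called higher. Among 16 genes of amino acid sensing upstream of mTORC1, 31.2% were called, against 13.9% of all genes tested. Of the 16, 5 rose and 0 fell (median 0.15). These included the GTPases Rragd (0.64, adjusted p 0.00999) and Rragc (0.39, 0.0125), their anchor Lamtor1 (0.34, 0.0282) and Sesn3, with Flcn (0.29, 0.0169; called in 7 of 12 alternatives) picked once its value was known. Rragc lost its call without WT replicate 1 (0.38, adjusted p 0.0556) or DM replicate 2 (0.35, 0.0618), and Lamtor1 kept its call in 6 of 12 alternatives. The number higher was 1 on leaving out WT replicate 1, 2 for DM replicate 2 and 3 for DM replicate 1, and it was 2 with no filter on the mean and 3 with quantile normalization.

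**Figure D4:**
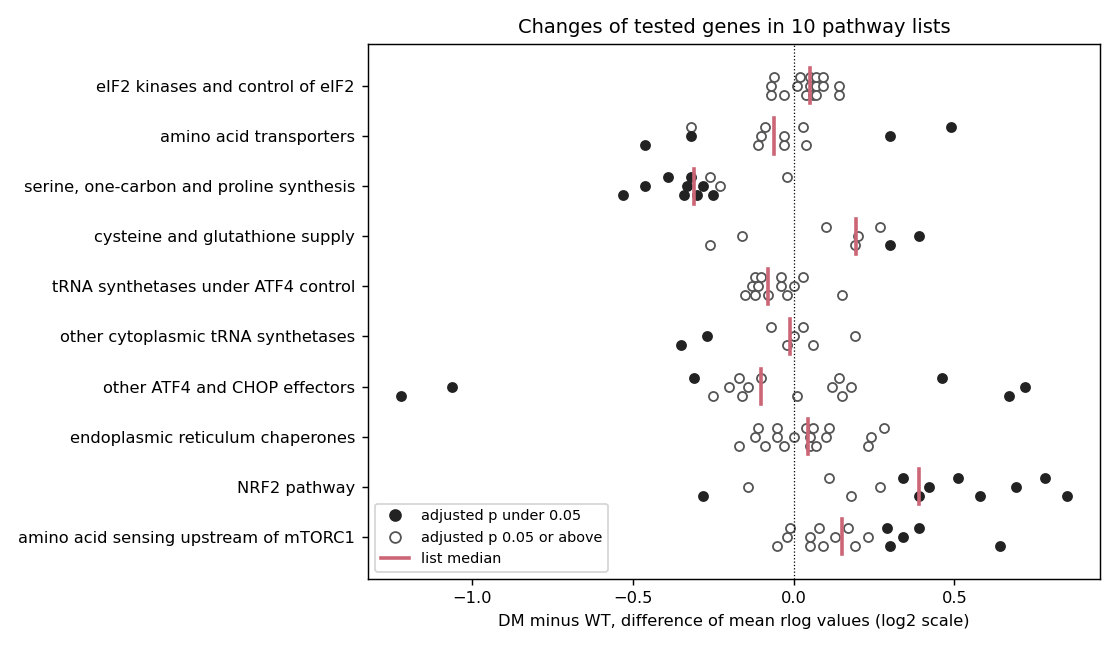
Each point is the change of a tested gene (DM minus WT, difference of mean rlog values on the log2 scale) in 10 pathway lists, filled where limma's adjusted p was under 0.05, with the list median as a red line. The serine, one-carbon and proline genes lie below 0 and most NRF2 pathway genes above it, while the points of the eIF2 list are open and lie near 0.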

How the data were processed

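The 6 RNA-seq libraries (3 WT, 3 DM, all in batch 1 per the labels) were analysed. Per the submitters' processing notes, cutadapt 2.6, STAR 2.7.3 and DESeq2 1.30.0 were used with the mm10 build; their settings, the counting tool and the annotation are not given in the sources used here. The deposited table holds log2 values after the regularized log transform, as read from its name and values; depth is unknown, since these hold no counts.

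The 142699 lines, many of them identical, were merged into 55487 genes, and 18766 with a mean of at least 3 were fitted with limma 3.58.1 in R 4.3.3 (DM against WT, mean-variance trend, Benjamini-Hochberg over all tested genes, threshold 0.05). On simulated data for this comparison (18766 genes) the fit called 95.4% of 108 genes changed by 1 and 73.9% of 92 changed by 0.5 on the log2 scale. It also called 8 unchanged genes. The simulated noise was independent between libraries, and far fewer genes were changed than were called in the real data. These shares are therefore not the sensitivity of the real comparison. Alternatives were no filter, a mean of at least 5, no trend, quantile normalization, centring on the median, a replicate block, and each library left out. Coordinates and exon lengths are from GENCODE M21 (GRCm38), which matched 97% of tested genes.

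The members, the 11 pathway lists and the 8 marker lists were chosen with earlier results of these data known, although the rule for the members is a list of names and uses no value. All members were described. Up to 4 called genes a list with the largest changes were named, besides the eIF2 kinases, Ppp1r15a, Psph, Shmt2, Mthfd2, Slc3a2, Cebpb, Cebpg and Hspa5.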

Additional observations from a re-analysis of the deposited data

How the results depend on the processing

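Asns, Chac1, Psat1 and Slc7a11 kept their direction and call in all 12 alternatives. The calls of Ddit3, Trib3, Phgdh and Atf5 were each lost on leaving out at least 1 library. With 1 library left out, between 1119 and 3475 genes were called (2611 with all libraries; 1119 on leaving out DM replicate 2, 1185 for WT replicate 1 and 1537 for DM replicate 3), between 1 and 3 members higher, between 3 and 5 members lower, and between 11 and 36 of the 132 pathway genes outside the members, against 34 with all libraries (11 for WT replicate 1, 15 for DM replicate 2 and 21 for DM replicate 3). Changes under these fits ran from 0.21 to 0.35 for Ddit3, from -0.4 to -0.28 for Trib3, from -0.79 to -0.51 for Phgdh and from 0.34 to 0.5 for Atf5. Ddit3 was at 0.29 without the filter on the mean, 0.23 after quantile normalization and 0.25 after centring, not called in any of these, and Atf4 was called at -0.21 after quantile normalization. A fit with 1 library left out has fewer degrees of freedom. The highest count, 3475 genes, came on leaving out WT replicate 2. What set these differences was not tested. Among the 10 members and 33 named pathway genes, 6 signs turned after quantile normalization: Sesn2 (-0.04), Eif2ak1 (-0.06), Eif2ak2 (-0.1), Eif2ak3 (-0.04), Cebpg (-0.07) and Hspa5 (-0.05). Centring turned Eif2ak2 (-0.02) and Cebpg (-0.03), and with 1 library left out Eif2ak2 ran from -0.05 to 0.06 and Cebpg from -0.04 to 0.07.

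Libraries share replicate numbers, and the labels do not say whether these mark pairs. Their deviations from the group means correlated at 0.49, 0.12 and 0.04 for numbers 1 to 3. Between unlike numbers the correlations ran from -0.34 (WT 1 with DM 2) to 0.12 (WT 3 with DM 2). Whether the numbers are pairs stays undecided, and the reported fit did not use them. With the replicate number as a block, 3742 genes, 3 members higher and 5 members lower were called, and the block changed no call of a member; it called 42 of the pathway genes. Depth is unknown, which limits what can be said of Chac1 and other low genes.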
